A study of Mus musculus with 11 samples.

Results

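Neural crest was compared with paraxial mesoderm in mouse embryos at E8.5, on 5 neural crest arrays and 3 paraxial mesoderm arrays out of 11 in the series. The 8 arrays were chosen by their tissue label alone, and the 3 neuroepithelium arrays, the only other group, entered the fit to estimate the spread and are quoted for orientation. All embryos were of the outbred CD1 strain, with no treatment or mutation named in any group, and were frozen and sectioned. Cells were cut out by laser on an Arcturus Veritas, and the RNA was amplified with a Nugen Ovation Pico kit before hybridisation to an Affymetrix mouse ST array. Single cells are mentioned in the design text, but no label says how many cells, or whose embryo, an array holds. All p-values below rest on the spread between arrays, which may be technical. Were every array a single cell of an unnamed embryo, each tissue would amount to 1 sample, and the tests would not apply.

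Neural crest cells arise at the dorsal edge of the neural tube, lose their epithelial junctions and migrate as mesenchyme through the head and trunk. Paraxial mesoderm comes from another germ layer, ingresses at the primitive streak and forms head mesenchyme and the somites, next to the paths that crest cells take. Crest cells at this stage are known for Snail-family repressors and for SoxE, Tfap2, Foxd3 and Id factors, and somitic mesoderm for Meox, Tbx6, Tcf15 and Pax1 factors.

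Each value is a deposited ratio, on a linear scale, of the array's signal to a reference set for each probe. No label describes the reference. From the values it is inferred to be the probe's median over 9 reference arrays, 8 of them given here. A ratio near 1 is shared by genes silent on most arrays and genes equally active on most arrays, so no ratio is an expression level, and ratios are compared here between arrays of 1 gene. Differences are given as crest minus mesoderm on the log2 scale. A lower value in a tissue piece can mean fewer cells with the RNA or less RNA per cell, and these cannot be told apart. Of 19938 genes, 14823 (74.3%) lay within 2-fold of their reference on all 8 crest and mesoderm arrays. Of 20 measured crest specifier genes 4 (Snai1, Sox9, Sox10 and Id2) were higher on all crest arrays than on any mesoderm array, and the others overlapped. Of 30 measured presomitic and somite genes 0 were higher on all mesoderm arrays than on any crest array. Over all genes, 1.46% were higher in crest in this way and 1.2% lower.

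Snai1, a zinc finger repressor that takes cells out of epithelia, separated the tissues most clearly. Its ratios were 51.0, 47.0, 82.1, 54.9 and 41.2 on neural crest arrays 1 to 5, and 0.890, 0.856 and 1.17 on the 3 mesoderm arrays. All crest arrays were high, all mesoderm arrays were near the reference, and the lowest crest array was 35.2-fold above the highest mesoderm array. The neuroepithelium arrays stood with mesoderm at 1.00, 1.16 and 0.800. The mean log2 ratio was 5.75 ± 0.38 (SD, n = 5) in crest and -0.06 ± 0.25 (SD, n = 3) in mesoderm, a log2 difference of 5.80 (SE 0.23), or 55.8-fold, with no overlap. The adjusted p in limma was 2.66e-05.

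Ddx47, a DEAD-box RNA helicase that takes part in ribosomal RNA processing, was the other gene to pass. Its ratios were 23.5, 37.8, 33.1, 108 and 21.0 on the crest arrays and 0.907, 0.974 and 0.908 on the mesoderm arrays. Crest array 4 was the highest, and the groups stayed 21.6-fold apart at their closest. The neuroepithelium arrays lay at 1.00, 0.981 and 1.02. The log2 mean was 5.20 ± 0.94 (SD, n = 5) in crest and -0.11 ± 0.06 (SD, n = 3) in mesoderm, with a log2 difference of 5.30 (SE 0.46) and an adjusted p of 0.0132 in limma. These 2 genes were 0.01% of the 19938 tested, both higher in crest and 0 lower, and 577 genes had an unadjusted p under 0.05. With an intensity trend in limma, which has no intensity to follow in ratios, 0 genes passed and 588 had an unadjusted p under 0.05 (adjusted p 0.172 for Snai1 and 0.603 for Ddx47). Over 24 settings Snai1 passed in 23, with adjusted p from 1.75e-05 to 0.172, and Ddx47 in 16, with 0.000168 to 0.603. On the 8 crest and mesoderm arrays alone Ddx47 did not pass (adjusted p = 0.157 in limma) and Snai1 did (0.00118). Ddx47 also did not pass without crest array 2 (0.0519) or 3 (0.0714), mesoderm array 1 (0.0585), or neuroepithelium array 2 (0.0560) or 3 (0.0555), nor on the 8 reference arrays (0.283).

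The DNA just upstream of these genes is shown because they were the only ones to pass. The 250 bases before each start site are from RefSeq on GRCm38.p6, at chr2:167537945-167538194 for Snai1 and chr6:135011362-135011611 for Ddx47, both on the plus strand and given 5′ to 3′. Capitals mark the matches to the motifs searched on both strands: the E-box CAGGTG that Snail-type repressors bind, the CCAAT box, the TATA box TATAAA and the GC box GGGCGG.
Snai1: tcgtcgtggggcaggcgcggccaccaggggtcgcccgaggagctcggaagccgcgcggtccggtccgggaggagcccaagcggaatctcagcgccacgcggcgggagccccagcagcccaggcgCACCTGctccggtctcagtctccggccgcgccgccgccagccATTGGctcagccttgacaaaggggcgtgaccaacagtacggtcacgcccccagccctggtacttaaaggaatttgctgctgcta
Ddx47: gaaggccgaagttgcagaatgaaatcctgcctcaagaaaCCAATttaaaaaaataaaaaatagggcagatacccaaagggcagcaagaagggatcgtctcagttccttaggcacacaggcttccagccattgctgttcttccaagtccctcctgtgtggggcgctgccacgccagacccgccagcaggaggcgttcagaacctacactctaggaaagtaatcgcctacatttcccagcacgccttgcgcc
The Snai1 stretch held the E-box, as CACCTG with its first base at -126 from the start, and the CCAAT box, as ATTGG at -84, both on the opposite strand. The Ddx47 stretch held the CCAAT box at -211. Neither held TATAAA or GGGCGG in these letters. Of 32851 upstream stretches of the same length, 17.2% held the E-box, 33.8% the CCAAT box, 12.4% the TATA box and 32.7% the GC box, so the matches are common ones. Snai1 had 27 CpG and Ddx47 had 9, where 91.4% and 59.7% of the stretches had fewer.

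A further pair of genes was high, at a ratio of 4 or more, on all 5 crest arrays and on no mesoderm array. Smarcb1, a core subunit of the SWI/SNF chromatin remodelling complex, had 6.48, 19.5, 10.1, 21.5 and 18.1 in crest and 0.813, 0.624 and 0.172 in mesoderm. The groups were 7.97-fold apart at their closest, with a log2 difference of 4.96 (SE 1.10) and an adjusted p of 1.00 in limma (0.312 to 1 over 24 settings). Pepd, a peptidase that splits dipeptides ending in proline, had 26.6, 4.97, 9.35, 6.93 and 7.30 in crest and 1.00, 0.260 and 0.464 in mesoderm (log2 difference 4.20, SE 1.28). Pepd and Smarcb1 were thus separated on every array without passing over all genes. The neuroepithelium arrays did not go with either tissue: they were at 13.1, 0.326 and 1.00 for Smarcb1 and at 0.260, 1.16 and 22.9 for Pepd.

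**Figure D1:**
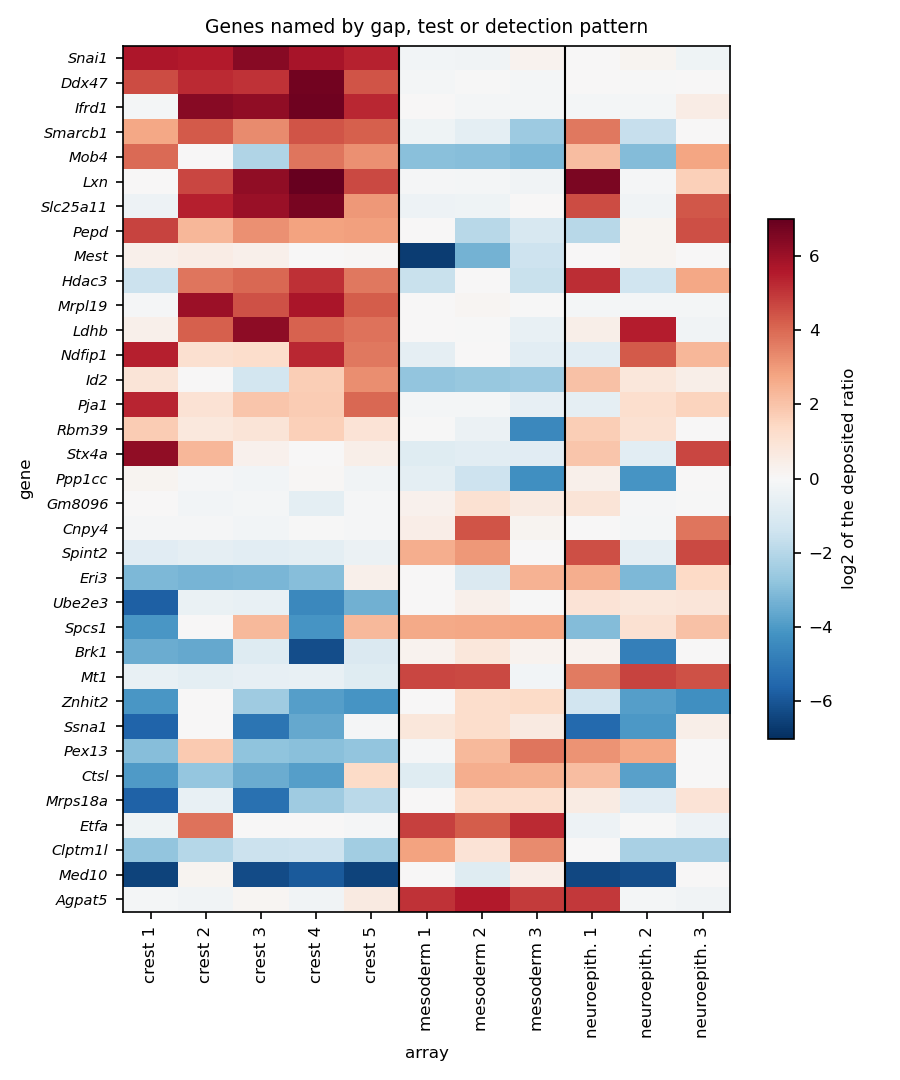
Log2 of the deposited ratio (colour, red above and blue below the reference) on each of 11 arrays (columns) for the 35 genes named by the test, the gap or the detection patterns (rows, ordered by difference). Snai1 and Ddx47 are red on all 5 crest arrays and pale on the 3 mesoderm arrays, whereas most other rows change between arrays of 1 tissue.

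High on at least 4 of 5 crest arrays and on no mesoderm array were 27 genes, 0.135% of those tested. The reverse pattern, high on all 3 mesoderm arrays and on no crest array, was met by 1 gene (0.00502%). The rules are not symmetric, since 4 of 5 arrays are asked of crest and 3 of 3 of mesoderm, so the counts are descriptions and were not tested against each other. Of the 27 genes, 4 were high on all 5 crest arrays, namely Snai1, Ddx47, Smarcb1 and Pepd, and 23 on 4. Crest array 1 was the array not high for 17 of these 23, array 4 for 3, array 5 for 2, array 2 for 1 and array 3 for 0. Crest array 1 also had 410 genes high in all, against 1159, 1064, 410 and 1500 on arrays 2 to 5. On the neuroepithelium arrays 11 of the 27 were high nowhere, 13 on 1 array and 3 on 2. The groups did not overlap for 8 of the 27 and overlapped for 19.

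The genes high on crest arrays 2 to 5 covered several functions. Ifrd1, a transcriptional coregulator, had 0.913, 81.5, 72.9, 113 and 38.6 in crest and 1.00, 0.911 and 0.904 in mesoderm. Crest array 1 lay with the mesoderm arrays, and without it the log2 difference went from 4.99 to 6.25, with an adjusted p of 0.0011 in limma (0.0011 to 1 over 24 settings). Mrpl19, a protein of the large mitochondrial ribosomal subunit, had 0.934, 62.3, 21.7, 52.7 and 19.2 in crest and 1.00, 1.10 and 0.973 in mesoderm. It too passed without crest array 1 (adjusted p = 0.0113 in limma, log2 difference 5.06) and not with it (0.0113 to 1 over 24 settings). Neither Ifrd1 nor Mrpl19 was high on a neuroepithelium array.

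Lxn, a carboxypeptidase inhibitor, had 1.00, 25.7, 75.0, 123 and 24.8 in crest and 0.931, 0.898 and 0.848 in mesoderm. Slc25a11, the oxoglutarate carrier of the mitochondrial inner membrane, had 0.794, 42.9, 65.6, 98.6 and 8.27 in crest and 0.788, 0.823 and 1.00 in mesoderm. Both were also high in neuroepithelium, Lxn on array 1 (95.0) and Slc25a11 on arrays 1 and 3 (23.8 and 20.1). Hdac3, a class I histone deacetylase, had 0.357, 13.2, 16.3, 34.5 and 12.9 in crest and 0.342, 1.00 and 0.334 in mesoderm, with neuroepithelium arrays 1 and 3 at 35.8 and 6.58. Ldhb, the B subunit of lactate dehydrogenase, had 1.29, 18.2, 75.6, 17.3 and 13.7 in crest and 1.00, 0.979 and 0.710 in mesoderm. A second Ldhb probe gave 0.813, 17.2, 64.3, 24.5 and 12.6 against 0.858, 1.03 and 0.723, so that both probes placed the same 4 crest arrays high. None of these 4 genes passed over all genes (adjusted p = 1.00 in limma for each, log2 differences from 3.91 to 4.67). The remaining 17 of the 27, named here after their values were seen, had log2 differences from 1.93 to 3.89: Pdcd2, Rhob, Ppp1r1a, Rfc2, Gid8, Sap30, Ugdh, Riok3, Dnajc15, Egln2, Gnpnat1, Fh1, Tpm4, Spred2, Wee1, Atf4 and Lrrc41. They include Tpm4, a tropomyosin of the actin cytoskeleton (25.0, 9.04, 10.6, 0.546 and 8.03 in crest, 0.584, 1.45 and 0.943 in mesoderm). Spred2, an inhibitor of ERK signalling, had 0.857, 4.19, 7.64, 10.4 and 30.6 in crest and 0.890, 0.874 and 0.968 in mesoderm. A second Spred2 probe stayed at 0.964 to 1.40 in crest and 0.957 to 1.31 in mesoderm, so the probes disagree.

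**Figure D2:**
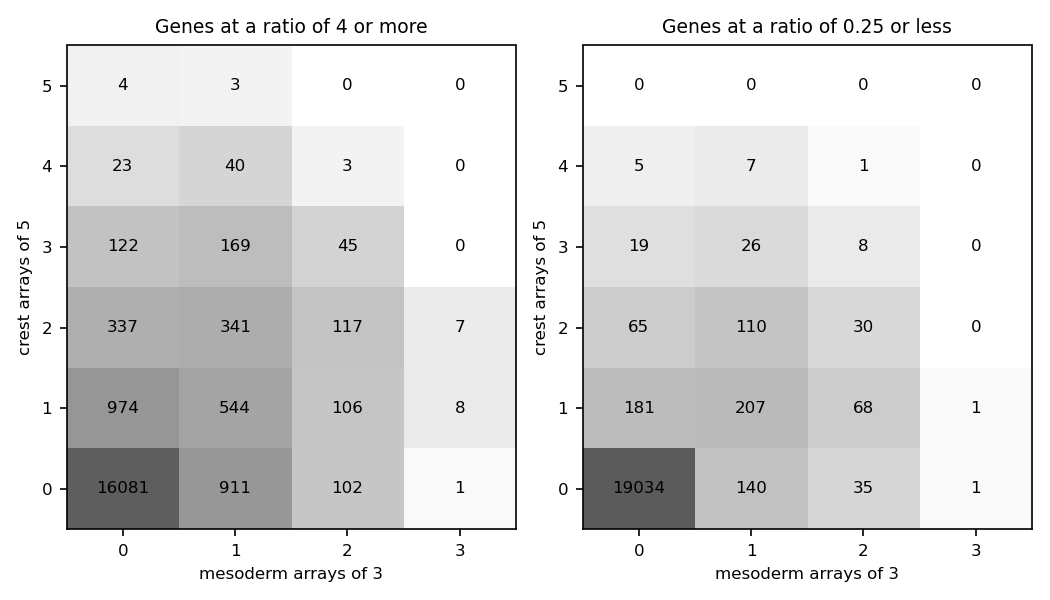
Number of genes by how many crest arrays (vertical axis, of 5) and mesoderm arrays (horizontal axis, of 3) reached a ratio of 4 or more (left) or 0.25 or less (right); shading follows the log10 of the number. The crest-high genes are the 4 and 23 at the upper left of the left panel, and 16081 genes were high on none of the 8 arrays.

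Agpat5, an acyltransferase of phospholipid synthesis, was the gene high on all 3 mesoderm arrays and on no crest array. Its ratios were 33.7, 46.6 and 29.6 in mesoderm and 0.899, 0.859, 1.12, 0.851 and 1.53 in crest, 19.4-fold apart at the closest. Neuroepithelium was split, with 30.8 on array 1 and 0.921 and 0.837 on arrays 2 and 3. The log2 difference was -5.13 (SE 1.05) with an adjusted p of 1.00 in limma. With the 8 crest and mesoderm arrays alone, where Ddx47 did not pass, Agpat5 passed (adjusted p = 0.00178 in limma), as it did without neuroepithelium array 1 (0.000217), and it passed in 2 of 24 settings (0.000217 to 1).

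Another 3 genes stood higher in mesoderm with clear values. Etfa, the alpha subunit of the electron transfer flavoprotein of fatty acid oxidation, had 28.0, 19.2 and 37.1 in mesoderm and 0.810, 13.8, 1.03, 1.00 and 0.940 in crest. Crest array 2 was high with the mesoderm arrays, and without it the adjusted p in limma was 0.000193 with a log2 difference of -4.85 (1.00 and -4.07 with it, 0.000193 to 1 over 24 settings). Clptm1l, a transmembrane protein, had 6.98, 1.94 and 9.77 in mesoderm and 0.146, 0.248, 0.351, 0.360 and 0.184 in crest, with neuroepithelium at 1.00, 0.204 and 0.206. The groups were 5.38-fold apart at the closest (log2 difference -4.39, SE 0.69, adjusted p = 0.936 in limma). Mt1, a metallothionein that binds zinc and copper, had 25.4, 24.9 and 0.864 in mesoderm and 0.566 to 0.710 in crest, with neuroepithelium at 12.7, 26.6 and 21.8. All 5 crest arrays were below the other 6 arrays, though mesoderm array 3 exceeded the highest crest array by no more than 1.22-fold, and without that array Mt1 passed (adjusted p = 6.15e-05 in limma, 6.15e-05 to 1 over 24 settings).

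A low ratio places an array below most of the reference arrays. Id2, a dominant-negative helix-loop-helix factor used by crest, was the gene at 0.25 or less on all 3 mesoderm arrays and on no crest array (0.00502% of genes). It had 0.146, 0.161 and 0.172 in mesoderm and 1.84, 1.00, 0.404, 3.31 and 9.71 in crest, with neuroepithelium at 4.17, 1.76 and 1.34. The mesoderm arrays agreed closely while the crest arrays were spread, and the groups were 2.34-fold apart at the closest (log2 difference 3.56, SE 0.90, adjusted p = 1.00 in limma). Mest, a paternally expressed imprinted gene, showed the same arrangement with less even mesoderm arrays: 0.01, 0.102 and 0.363 against 1.02 to 1.46 in crest and 1.00 to 1.12 in neuroepithelium. The value of 0.01 is the lowest deposited anywhere. Mest passed without mesoderm array 3 (adjusted p = 0.0467 in limma, 0.0467 to 1 over 24 settings).

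Low on at least 4 of 5 crest arrays and on no mesoderm array were 5 genes (0.0251%). Med10, a subunit of the Mediator complex, had 0.0112, 1.16, 0.0130, 0.0169 and 0.0112 in crest and 1.01, 0.565 and 1.37 in mesoderm. Neuroepithelium arrays 1 and 2 were as low as crest (0.0122 and 0.0134) and array 3 was at 1.00. Ctsl, a lysosomal protease, had 0.0642, 0.156, 0.0898, 0.0697 and 2.56 in crest and 0.557, 5.86 and 5.52 in mesoderm. Pex13, a membrane protein of peroxisomal import, had 0.125, 3.62, 0.140, 0.133 and 0.149 in crest and 0.928, 4.81 and 13.5 in mesoderm. In each of these genes 1 crest array, array 2 or array 5, stood apart from 4 that lay close together. Znhit2, a zinc finger protein, was low on crest arrays 1, 3, 4 and 5 (0.0597, 0.178, 0.0704 and 0.0578) and at 1.00 on array 2, against 1.00, 2.37 and 2.51 in mesoderm. Eri3, an exoribonuclease, had 0.113, 0.104, 0.107, 0.128 and 1.30 in crest and 1.00, 0.492 and 5.34 in mesoderm. None of the 5 passed over all genes (adjusted p = 1.00 in limma for each, log2 differences from -4.86 to -2.91).

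No overlap between the 5 crest and the 3 mesoderm arrays was seen for 531 genes (2.66%), of which 291 (1.46%) were higher in crest and 240 (1.2%) lower. Most of these separations were small: 421 of the 531 (79.3%) differed by under 2-fold, 44 by 2-fold to 4-fold and 66 by over 4-fold. The median difference was 1.12-fold among the higher and 1.09-fold among the lower genes. Each neuroepithelium array was placed on the crest or the mesoderm side of the middle of the gap. All 3 arrays lay on the crest side for 70 higher and 49 lower genes and on the mesoderm side for 33 and 24. They were divided between the sides for 188 and 167. A gap of at least 2-fold between the closest arrays of the groups was left for 8 genes higher in crest (Snai1, Ddx47, Smarcb1, Pepd, Mest, Id2, Pja1 and Ndfip1) and 3 lower (Agpat5, Clptm1l and Brk1).

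Pja1, a RING-type ubiquitin ligase, had 40.7, 2.02, 3.91, 3.45 and 16.5 in crest and 0.899, 0.896 and 0.680 in mesoderm. Ndfip1, an adaptor that recruits Nedd4-family ubiquitin ligases, had 43.4, 2.18, 2.33, 38.5 and 13.0 in crest and 0.659, 1.00 and 0.607 in mesoderm. For both, crest array 1 was the highest of the 5, unlike in the genes high on crest arrays 2 to 5. Brk1, a small subunit of the WAVE complex that drives actin branching, had 0.0887, 0.0826, 0.530, 0.0136 and 0.502 in crest and 1.16, 1.75 and 1.20 in mesoderm. None of these 3 genes passed over all genes (adjusted p = 1.00 in limma for each).

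Below a 2-fold gap, the widest separations upward in crest were those of Mob4, Rbm39, Stx4a and Ppp1cc. Mob4, a subunit of striatin phosphatase complexes, was even in mesoderm (0.130, 0.124 and 0.114) and spread in crest (15.4, 1.00, 0.235, 13.3 and 9.26). Stx4a, a syntaxin of plasma membrane fusion, was likewise even in mesoderm (0.561, 0.602 and 0.568) and between 1.00 and 73.4 in crest. Rbm39, a splicing factor, lay at 1.70 to 3.40 in crest and at 0.969, 0.751 and 0.0446 in mesoderm. Ppp1cc, a catalytic subunit of protein phosphatase 1, lay at 0.829 to 1.12 in crest and at 0.619, 0.366 and 0.0506 in mesoderm, and a second probe at 0.788 to 1.21 and at 0.587, 0.249 and 0.0519. The log2 differences of Rbm39 and Ppp1cc were 2.86 and 2.09, and 1.44 and 1.01 without mesoderm array 3.

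Downward in crest, Ssna1, Mrps18a, Ube2e3, Spint2, Spcs1, Gm8096 and Cnpy4 completed the named genes. Mrps18a, a mitochondrial ribosomal protein, had 0.0195, 0.694, 0.0273, 0.180 and 0.266 in crest and 1.00, 2.23 and 2.26 in mesoderm. Ube2e3, a ubiquitin-conjugating enzyme, had 0.0191, 0.721, 0.689, 0.0437 and 0.0986 in crest and 1.00, 1.29 and 0.974 in mesoderm, with neuroepithelium at 1.71 to 1.95. Spint2, an inhibitor of membrane serine proteases in epithelia, was even in crest (0.574 to 0.750) and at 5.85, 8.14 and 1.00 in mesoderm, with neuroepithelium arrays 1 and 3 at 22.6 and 24.3. Spcs1, a subunit of the signal peptidase, was even in mesoderm (6.27, 6.46 and 6.87) and from 0.0575 to 4.91 in crest. Ssna1, a microtubule-associated protein, had 0.0205, 1.00, 0.0286, 0.0822 and 0.931 in crest and 1.75, 2.33 and 1.53 in mesoderm. Cnpy4 was high on mesoderm array 2 (21.3) and at 1.38 and 1.16 on the other mesoderm arrays, and the predicted gene Gm8096 had a log2 difference of -0.88 (SE 0.27).

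Crest specifier transcription factors, which set the identity of crest cells, included several with no overlap. Of 20 measured, 4 were higher in crest with no overlap (20%, against 1.46% of all genes) and 0 lower, 1 of them (Snai1) passed over all genes, and 19 had a positive difference (51.2% of all genes did). The median difference of the list was 1.33 on the log2 scale, against 0.0024 over all genes. On at least 1 crest array 11 of the 20 were high (55%, against 14.3% of all genes), and on a mesoderm array 0 (against 12% of all genes). The members high numbered 2, 6, 5, 2 and 10 on crest arrays 1 to 5 (10%, 30%, 25%, 10% and 50%). Over all genes the shares were 2.06%, 5.81%, 5.34%, 2.06% and 7.52%. Array 5 thus carried the most in the list and over all genes. The list was chosen with these results known, and its count is a description. With 1 mesoderm array fewer, which makes overlap less likely, the members with no overlap were 6, 9 and 7 without mesoderm arrays 1, 2 and 3. Over all genes, those higher in crest with no overlap went from 291 to 789, 837 and 835.

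Sox9 and Sox10, SoxE factors of the migrating crest, were the next members with no overlap. Sox9 had 1.33, 17.2, 1.46, 1.21 and 21.3 in crest and 0.574, 0.848 and 1.00 in mesoderm, so its difference of 2.30 (SE 1.05) rested on crest arrays 2 and 5. Sox10 had 2.69, 2.42, 1.51, 1.10 and 7.67 in crest and 0.715, 0.872 and 1.00 in mesoderm, a log2 difference of 1.50 (SE 0.54). Neither passed over all genes (adjusted p = 1.00 in limma for both). Tfap2b, an AP-2 factor, was high on crest arrays 2, 3 and 5 (27.9, 21.4 and 51.3) and at 1.00 and 0.936 on arrays 1 and 4, against 0.828 to 1.32 in mesoderm. Lmo4, a LIM-only cofactor, followed the same arrays (10.8, 85.6 and 98.3, against 1.05 and 0.985 on arrays 1 and 4). Twist1, a helix-loop-helix factor of mesenchyme, was high on crest arrays 2 and 5 (8.79 and 27.3) and at 0.950 to 1.09 in mesoderm. Neuroepithelium arrays 1 to 3 were at 0.947, 1.51 and 22.6 for Tfap2b and at 0.874, 5.92 and 1.02 for Twist1. Crest arrays 1 and 4 each had 2 of the 20 specifiers high, Snai1 among them, though a ratio near 1 does not show that a gene was silent. Foxd3 was highest on array 4 (3.99, against 0.995 to 1.96 on the other crest arrays and 0.923 to 1.23 in mesoderm). Tfap2a, Ets1 and Snai2 lay between 0.905 and 1.19 on all 8 arrays. Myc, a growth-promoting factor of early crest, was at 1.42 to 5.83 on the crest arrays and at 1.57, 0.317 and 0.0636 in mesoderm, and all 3 neuroepithelium arrays were low (0.0630 to 0.0836).

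**Figure D3:**
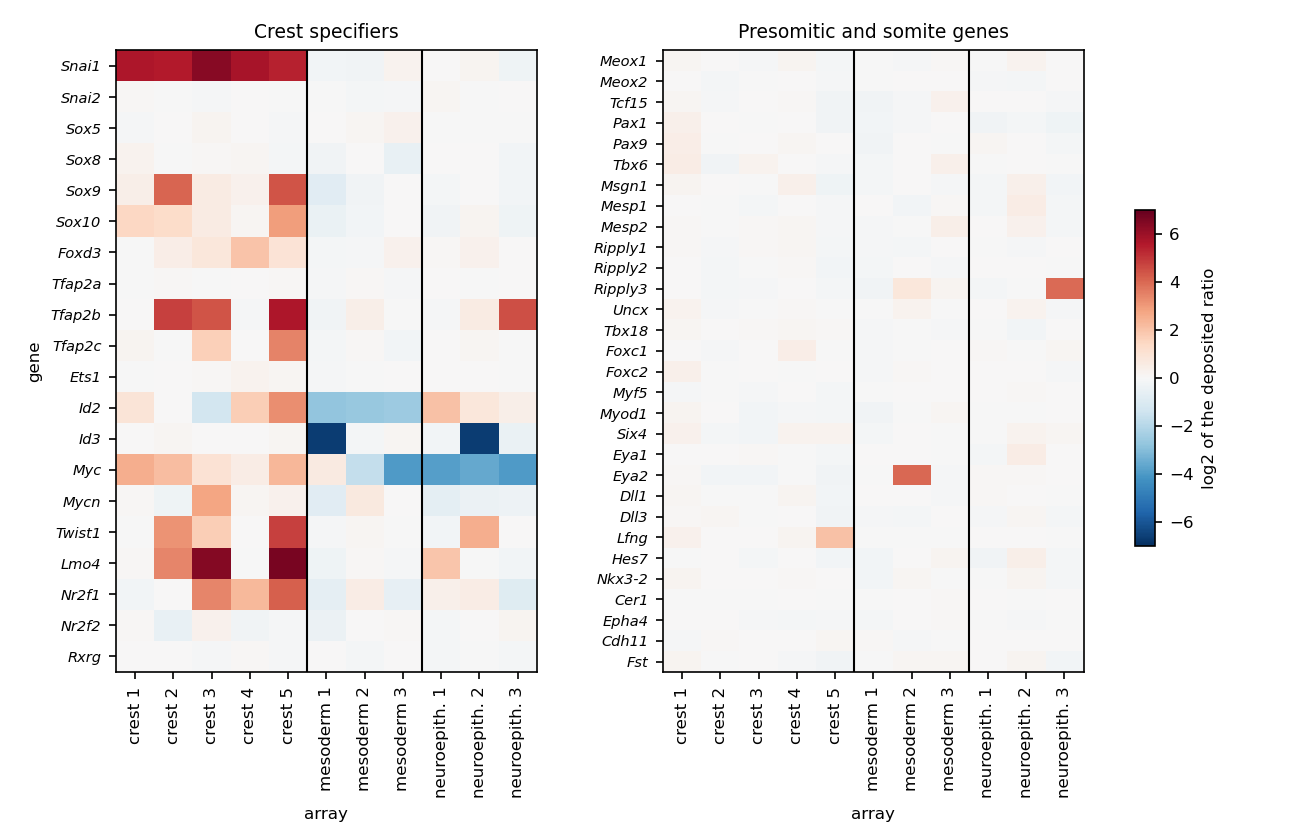
Log2 of the deposited ratio (colour, red above and blue below the reference) on each of 11 arrays (columns) for 20 crest specifiers (left) and 30 presomitic and somite genes (right). Of the crest specifiers 11 reach a ratio of 4 on a crest array, 10 of them on array 5, whereas the somite genes stay pale on the 3 mesoderm arrays apart from Eya2 on array 2. Over all genes 14.3% reach it on a crest array and 7.52% on crest array 5.

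Other genes of crest development lay mostly within 2-fold of the reference, as 74.3% of all genes did on all 8 arrays. Of 13 transcription factors of the epithelial to mesenchymal transition, 1 (Snai1) was higher with no overlap (7.69%, against 1.46% of all genes). Within 2-fold on all 8 arrays were 8 of the 13 (61.5%), a smaller share than over all genes. Of 24 guidance and migration receptors of crest cells, such as Ednrb, Nrp1 and Erbb3, all 24 lay within 2-fold on all 8 arrays, and 1 was higher with no overlap (Ephb1, at 0.08 on the log2 scale), where 1.46% of all genes were. Among 25 guidance ligands, 1 was higher and 1 lower with no overlap (1.46% and 1.2% of all genes). The higher one was Sema3e (0.995 to 1.03 in crest, 0.943 to 0.968 in mesoderm), a difference of 0.07. The lower one was Pdgfc, a ligand of the PDGF alpha receptor, whose values were 0.865 to 1.00 in crest and 1.02, 27.2 and 1.13 in mesoderm, so that mesoderm array 2 set the difference. Of 13 neural plate border genes 0 had no overlap and 1 had an unadjusted p under 0.05 in limma, as had 577 of all 19938 genes. On mesoderm array 2, 3 of the border genes were high (23.1%, against 4.03% of all genes), namely Msx1 (34.9), Msx2 (20.0) and Dlx5 (70.4). Msx1 was also high on crest array 3 (32.3).

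Genes that define paraxial mesoderm were not high on the arrays that carry its label. Of 30 presomitic and somite genes measured, 28 (93.3%, against 74.3% of all genes) lay within 2-fold on all 8 arrays. With no overlap, 0 were lower in crest and 2 (6.67%) were higher in crest, against 1.2% lower and 1.46% higher of all genes. Those were Tbx18 (1.03 to 1.11 in crest, 0.951 to 0.989 in mesoderm) and Lfng (1.00 to 4.17 against 0.974 to 0.994). Meox1 was at 0.963, 0.953 and 1.05 and Tcf15 at 0.850, 0.952 and 1.22 on mesoderm arrays 1 to 3. On a mesoderm array 1 member was high (3.33%, against 12% of all genes), Eya2 on array 2 (16.0). Since a ratio near 1 does not tell a silent gene from one active on all arrays, these values do not show whether the somite genes were expressed. Of 16 cranial mesoderm genes 14 (87.5%, against 74.3% of all genes) lay within 2-fold, and Six2 was high on mesoderm array 2 (45.9). Of the 16, 1 (6.25%, against 1.46% of all genes) was higher in crest with no overlap and 0 lower.

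Signalling and matrix families held 0 to 2 genes each with no overlap. Over all genes, 1.46% were higher in crest in this way and 1.2% lower. Of 31 Wnt genes, 13 hedgehog genes and 17 retinoic acid genes, 0 had no overlap, with 2, 0 and 0 at an unadjusted p under 0.05 in limma. Over all genes 577 of 19938 had such a p. Nkd1, a feedback inhibitor of Wnt signalling, was high on crest arrays 2, 3 and 4 (22.3, 36.9 and 43.6) and at 1.42 and 0.869 on arrays 1 and 5, against 0.863 to 1.13 in mesoderm. Of 24 FGF and ERK feedback genes, 1 was lower with no overlap (1.2% of all genes were), the receptor antagonist Il17rd, by 0.13 on the log2 scale (0.969 to 1.02 in crest, 1.07 to 1.10 in mesoderm). Of 34 BMP, TGFb and Id genes, 2 (5.88%, against 1.46% of all genes) were higher with no overlap, Id2 and the receptor Acvr1 (1.03 to 1.11 against 0.991 to 1.00). All 37 Hox genes, all 10 laminins, 42 of 44 collagens and 26 of 27 integrins lay within 2-fold on all 8 arrays. Over all genes 74.3% did. Higher in crest with no overlap were 1 Hox gene (2.70%), 2 collagens (4.55%), 1 integrin (3.70%) and 0 laminins. Of 20 Notch genes 1 (5%) was higher with no overlap. In each of these families 0 were lower with no overlap. In collagens 37 of 44 had a positive difference (84.1%, against 51.2% of all genes), with a slight median of 0.07. The mean log2 ratio of the collagens ran from -0.20 to 0.36 on the crest arrays. On the mesoderm arrays it ran from -0.21 to 0.13, so the tissues overlapped. Vim, an intermediate filament of mesenchyme, was at 2.49 to 5.76 on all crest arrays and at 0.0526, 0.0598 and 5.18 in mesoderm, where array 3 lay with crest (log2 difference 4.01, SE 1.51, adjusted p = 1.00 in limma).

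The number of genes high per array varied more within a tissue than between tissues. It was 410, 1159, 1064, 410 and 1500 on the crest arrays and 1617, 804 and 381 on the mesoderm arrays. The mean was 909 ± 483 (SD, n = 5) in crest and 934 ± 628 (SD, n = 3) in mesoderm, a difference of -25.4 genes (exact permutation test, two-sided, p = 1, smallest possible p 0.0357 over 56 splits). Genes at 0.25 or less numbered 503, 73, 138, 297 and 67 in crest and 108, 220 and 452 in mesoderm. Their means were 216 ± 186 (SD, n = 5) and 260 ± 175 (SD, n = 3), a difference of -44.4 genes (exact permutation test, two-sided, p = 0.786). The sign of both differences turned when single arrays were left out, for high genes without crest array 1 or 4 (99.2 for each) or mesoderm array 1 (316) and for low genes without mesoderm array 3 (51.6). High on at least 1 array were 2843 genes in crest (14.3%) and 2397 in mesoderm (12%), 1383 of them in both. The first count is over 5 arrays and the second over 3, and without crest array 5 the first was 2226. Of the genes high in 1 tissue alone, 974 were high on a single crest array and 911 on a single mesoderm array.

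**Figure D4:**
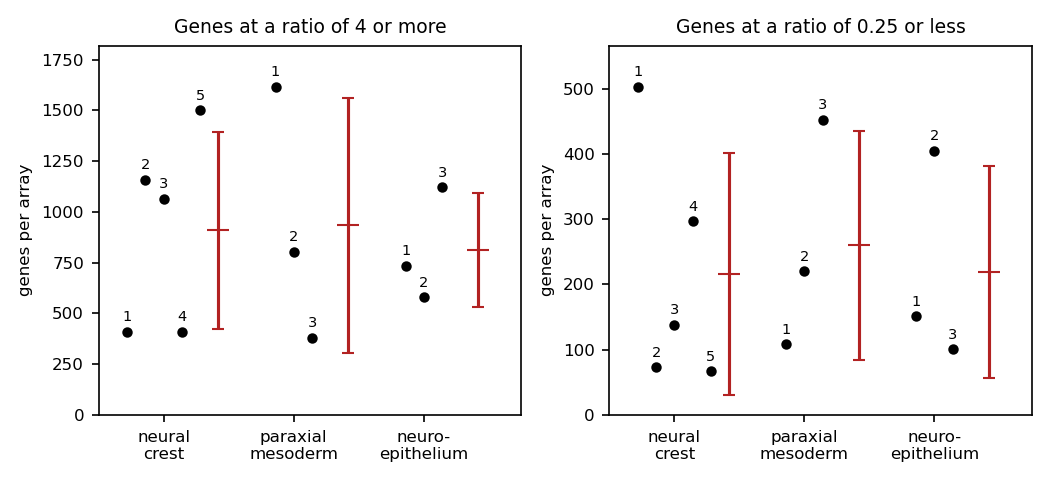
Number of genes per array (vertical axis) at a ratio of 4 or more (left) and 0.25 or less (right); points are arrays with their number, and the red bar is the group mean with its SD. Crest and mesoderm overlap in both panels, and crest array 1 and mesoderm array 3 have the most low genes of their tissues (503 and 452).

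Families of the mitochondrion and of other core machinery varied between the arrays of each tissue. Of 77 mitochondrial ribosomal proteins, 1 was higher and 1 lower with no overlap (1.30% each, against 1.46% and 1.2% of all genes). Those at 0.25 or less numbered 22, 3, 7, 9 and 1 on the crest arrays and 4, 12 and 20 on the mesoderm arrays. Of 80 subunits of the respiratory chain and ATP synthase, 32, 4, 6, 11 and 0 were low in crest and 3, 9 and 23 in mesoderm. On crest array 1 these were 28.6% and 40% of the 2 families, against 2.52% of all genes. On mesoderm array 3 they were 26.0% and 28.75%, against 2.27%. High on any crest array were 46.8% and 12.5% of the families (14.3% of all genes), and on any mesoderm array 41.6% and 8.75% (12% of all genes). Crest array 1 and mesoderm array 3 thus had the most low members of their tissues in both families, as they did over all genes. The pattern was not particular to the mitochondrion. On these arrays 18 and 12 of 39 proteasome subunits were low, 18 and 7 of 75 spliceosome and hnRNP genes, and 10 and 13 of 61 translation factors. Those were also the most low members of their tissues. The median difference was 0.34 for the mitochondrial ribosomal proteins, and -0.10 without crest array 5 and -0.14 without mesoderm array 3. For the respiratory chain it was -0.04, and 0.09 without crest array 1 and 0.01 without mesoderm array 1, so neither family had a settled direction. The member higher with no overlap was Mrps2 (1.05 to 1.63 in crest, 0.670 to 1.00 in mesoderm), and that lower was Mrps18a, described above. Of the respiratory chain, Atp5l had no overlap, at 0.01, 0.293, 0.912, 0.166 and 0.889 in crest and 0.932, 1.13 and 1.44 in mesoderm. Of 61 cytosolic ribosomal proteins 50 (82.0%, against 74.3% of all genes) lay within 2-fold and 0 had no overlap. At an unadjusted p under 0.05 in limma were 0 of the 61 and 577 of all 19938 genes.

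Helicases, the family of Ddx47, were split in direction. Of 51 DEAD and DEAH box helicases, 24 had a positive and 27 a negative difference (median -0.02), and 2 (3.92%, against 1.46% of all genes) were higher with no overlap. The other was Ddx41, a helicase of splicing and DNA sensing, at 2.33, 14.6, 1.47, 26.4 and 5.33 in crest and 1.29, 0.783 and 0.731 in mesoderm (log2 difference 2.70, SE 0.89). High on a crest array were 16 helicases and on a mesoderm array 16 (31.4% each, against 14.3% and 12% of all genes).

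Markers of other cell types were high on single mesoderm arrays. Over all genes the share high was 8.11%, 4.03% and 1.91% on mesoderm arrays 1 to 3. It was 5.34%, 2.06% and 7.52% on crest arrays 3 to 5, and 3.69%, 2.91% and 5.63% on neuroepithelium arrays 1 to 3. Of 8 primitive erythroid markers 7 were high on mesoderm array 1, among them the globins Hbb-bh1 (269) and Hba-x (85.5), the haem enzyme Alas2 (76.6) and the factors Gata1 (50.9) and Klf1 (46.6). The mean log2 ratio of the list was 5.43 there and -0.08 to 0.15 on the other 10 arrays. Of 12 surface ectoderm markers 5 were high on mesoderm array 2, namely Krt8 (34.4), Krt18 (88.8), Krt19 (65.0), Cldn4 (45.1) and Cldn7 (92.2). That list had a mean log2 ratio of 2.45 there, -0.23 and 0.41 on mesoderm arrays 1 and 3 and -0.20 to 0.42 on the crest arrays. The 3 neuroepithelium arrays were like mesoderm array 2, with 5, 7 and 5 of the 12 markers high and mean log2 ratios of 2.39, 3.24 and 2.51, and Epcam was at 1.00 on mesoderm array 2. Of 7 notochord and floor plate markers 3 were high on mesoderm array 3, Nkx6-1 (36.5), Nog (9.63) and Foxa2 (7.64), with a mean log2 ratio of 1.64 against -0.13 to 0.19 on the other 10 arrays. Each of these lists thus had members high on a different mesoderm array, 7 of 8 erythroid, 5 of 12 surface ectoderm and 3 of 7 notochord markers. Most of the surface ectoderm and notochord markers were not high on those mesoderm arrays. Surface ectoderm markers were also high on all neuroepithelium arrays. Of the surface ectoderm list 1 member was high on a crest array, Krt8 on array 3 (36.3). Of 11 neural tube markers 1 was high on each of crest arrays 3, 4 and 5 and on mesoderm array 2, on crest array 3 the filament Nes (8.48), on crest arrays 4 and 5 the lipid-binding protein Fabp7 (95.4 and 63.0) and on mesoderm array 2 the forebrain factor Otx2 (53.6). Of 8 gut endoderm and 7 lateral plate markers 1 each was high on mesoderm array 2, Cldn6 (25.1) and Bmp4 (19.4). In lists this short, 1 member high on an array is not read as a result. Of 10 endothelial, 9 cardiac and 7 placode markers, 0 were high on any of the 8 arrays. The part of these markers in the differences between the tissues was not tested. The log2 difference of Snai1 stayed between 5.65 and 5.97 and that of Ddx47 between 4.92 and 5.62 over 24 settings. Without mesoderm array 1 Ddx47 no longer passed (adjusted p = 0.0585 in limma, 0.000168 to 0.603 over 24 settings), whereas Snai1 passed without each mesoderm array (3.08e-05 to 0.000324). Each mesoderm array had members of a different list high. Leaving out 1 array at a time therefore does not test the part of these markers.

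**Figure D5:**
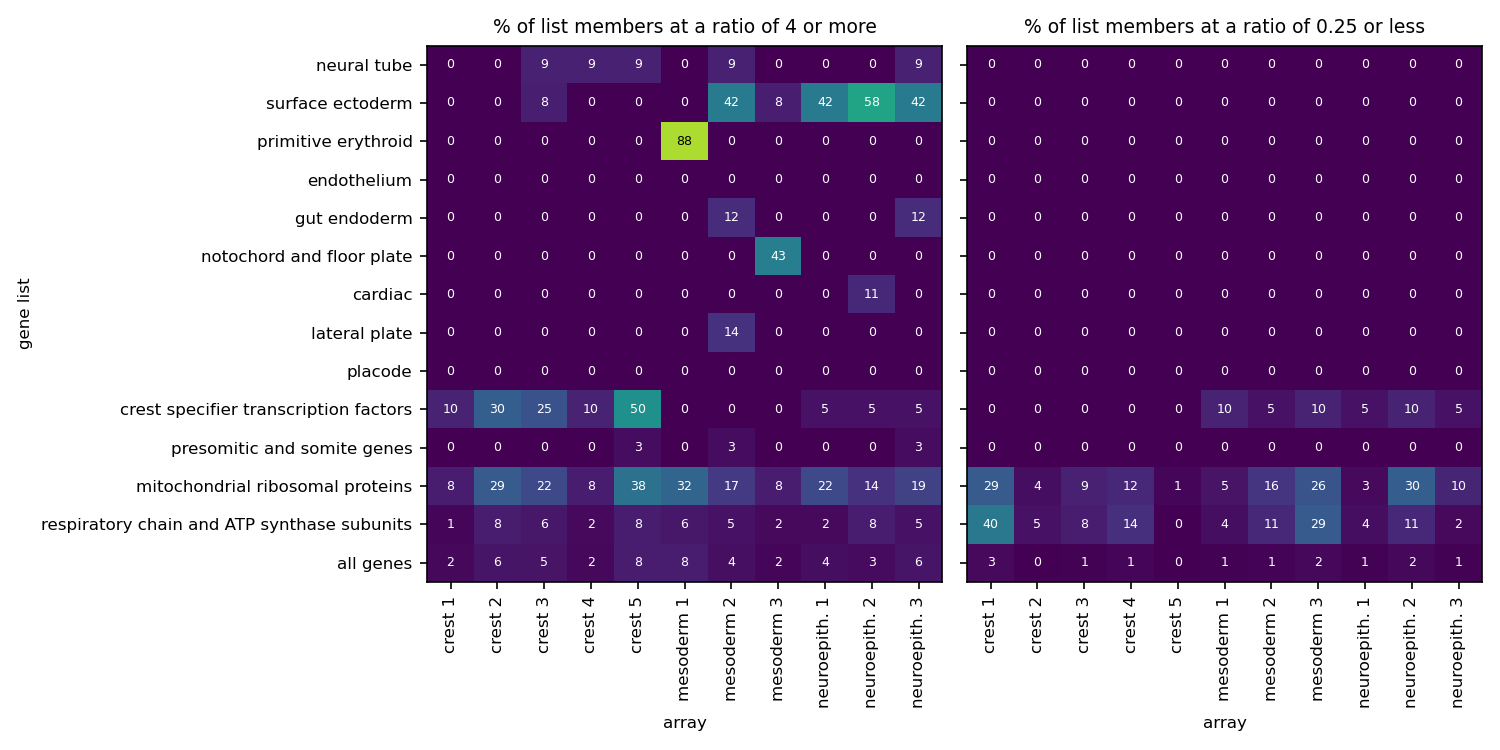
Share of list members (% in each cell) at a ratio of 4 or more (left) and 0.25 or less (right) on each of 11 arrays, for 9 lists of cell type markers, 4 gene families and all genes. On mesoderm arrays 1, 2 and 3 in that order, 87.5% of erythroid, 41.7% of surface ectoderm and 42.9% of notochord markers are high. Surface ectoderm markers are also high on the 3 neuroepithelium arrays. Among the crest and mesoderm arrays, the mitochondrial families are low most often on crest array 1 and mesoderm array 3, as are all genes.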

How the data were processed

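The deposited values are linear ratios, per the values themselves. The submitters' processing notes name RMA and the build mm9, with no version; the step by which the authors turned signals into a ratio is not given in the labels. Of 35557 probes listed, 6701 were blank. Column medians were exactly 1 on 8 arrays and 0.991 to 1.01 on neuroepithelium array 2 and crest arrays 3 and 5, which lie outside the reference. Of 28856 probes with values, 21789 had 1 symbol in the platform annotation, 1621 several and 5446 none. The 7067 probes without a single symbol were fitted apart (limma, 0 passing, 196 at an unadjusted p under 0.05). RefSeq identifiers (GRCm38.p6) matched 21698 probes and changed 0 symbols. The probe with the highest mean log2 ratio over 11 arrays stood for a gene, giving 19938 genes, 999 with several probes.

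Log2 ratios were fitted with 3 group means over all 11 arrays in limma 3.58.1 (R 4.3.3; lmFit, eBayes without trend), adjusted by Benjamini-Hochberg over all genes at a two-sided 0.05. The script was tested on simulated data. Counts per array were compared by an exact permutation test (scipy 1.17.1). The number of arrays limits the precision. Alternatives changed the prior variance, array weights, arrays fitted, probe choice, normalization, pseudocount, filter and ratio limits.

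Genes were named if they passed, if they were among the 12 widest gaps each way, or among the 10 largest differences of each detection pattern, together with members of 42 lists. The members and lists were chosen with earlier results of these data known, and the list pattern for integrins was corrected after the files were seen. No label says whether shared array numbers pair the tissues, and they were not treated as pairs. Deviations of same-numbered arrays correlated at -0.153, 0.00897 and -0.0592, and those of differently numbered arrays at -0.105 to 0.169. With no embryo named, these correlations cannot settle whether the arrays were paired.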

Additional observations from a re-analysis of the deposited data

Results flagged for a closer look

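A crest array that stood apart from the 4 others, by the gap to its nearest neighbour relative to the range, was looked for among 65 named genes and 2 counts per array. It was found for 10 genes. Chance flags about 1 in 20 groups, but 7 of the 10 (Hdac3, Ifrd1, Mrpl19, Med10, Pex13, Ctsl and Eri3) were named because the other 4 crest arrays were all high or all low, so that the choice of genes favoured the finding and their number is not read against chance. Crest array 1 was the one apart, and the lowest, for Hdac3 (0.357), Ifrd1 (0.913) and Mrpl19 (0.934), all high on the other crest arrays. Crest array 2 was the highest for Etfa (13.8), Med10 (1.16) and Pex13 (3.62), where the other crest arrays were near the reference or low. Crest array 5 was the highest for Ctsl (2.56) and Eri3 (1.30), low on the other crest arrays, and for Sema3e (1.03), where all values lay close to 1. Crest array 4 was the lowest for Gm8096 (0.633). Groups of 3 were too small for this check. What set these arrays apart was not tested.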

How the results depend on the processing

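Of 65 genes followed through the settings, 0 changed the sign of their difference in the settings that held them (24, or 23 for Mrps2 and Sema3e); the other list members named in the text were not followed. The count of 2 genes passing in limma was 0 with the intensity trend (588 at an unadjusted p under 0.05). It was 3 with the replicate block (Ddx47, Riok3 and Snai1), although no label says that the array numbers pair the samples. With 1 array left out it ran from 1 to 43: 5 without crest array 1, 4, 12 and 43 without mesoderm arrays 1, 2 and 3, and 1 without crest array 3 or neuroepithelium array 2 or 3. On the 8 crest and mesoderm arrays alone it was again 2, with Agpat5 in place of Ddx47 (adjusted p = 0.157). Of 2 settings added after the data were seen, leaving out crest array 1 and mesoderm array 3 together gave 33, and the 8 reference arrays alone gave 2 (Snai1 and Gid8).

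Genes with no overlap numbered 424 to 837 higher and 337 to 772 lower with 1 array left out, 929 and 849 on the reference arrays, and 1109 and 1104 without crest array 1 and mesoderm array 3, since fewer arrays overlap less. Among genes at least 2-fold off on some array they were 104 and 50, and with a 2-fold gap 8 and 3. With 1 array left out the patterns asked 1 fewer array and held 30 to 112 crest-high, 1 to 63 mesoderm-high, 1 to 24 mesoderm-low and 5 to 17 crest-low genes. In the same order they held 123, 11, 2 and 73 on the reference arrays and 125, 66, 9 and 14 without the 2 arrays. Ratio limits of 2 and 0.5 gave 46 crest-high and 10 crest-low genes, limits of 8 and 0.125 gave 0 mesoderm-low and 1 crest-low, and quantile normalization gave 2 mesoderm-high and 0 mesoderm-low. The difference in high genes per array ran from -302 to 316 with 1 array left out (99.2 without crest array 1 or 4) and was 4.07 at a limit of 2. That in low genes ran from -120.4 to 51.6 and was 31.0 on the reference arrays. The cause of these shifts was not tested. The arrays carry no depth, and a ratio near 1 sets no bound on a level.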

Other observations

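Imprinted genes, which are read from 1 parental copy, held 1 member higher with no overlap among 30 measured, Mest (3.33%, against 1.46% of all genes). Of the 30, 3 had an unadjusted p under 0.05 in limma, as had 577 of all 19938 genes. High on any crest array were 4 of them (13.3%, against 14.3% of all genes) and on any mesoderm array 6 (20%, against 12%). Sgce, a sarcoglycan next to Peg10, had 0.983, 30.5 and 91.9 on the mesoderm arrays and 0.837 to 1.13 in crest, so that mesoderm array 1 lay with crest. Its log2 difference was -3.80 (SE 1.19), and without mesoderm array 1 it passed (adjusted p = 0.00135 in limma, 0.00135 to 1 over 24 settings). Cdkn1c, a cell cycle inhibitor, was high on mesoderm array 3 alone among the 8 arrays (42.4), and Dlk1, a Notch-like ligand, on mesoderm array 2 (11.2). Cd81, a tetraspanin, was high on crest arrays 2, 3 and 4 (4.32, 21.8 and 20.2) and at 0.381 to 1.00 in mesoderm.

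Core machinery held further single genes whose groups overlapped or nearly did. Cox6b2, a testis-type subunit of cytochrome oxidase, had 45.2, 19.7 and 1.00 in mesoderm and 0.831 to 1.44 in crest, and passed without mesoderm array 3 (adjusted p = 0.000504 in limma, 0.000504 to 1 over 24 settings). Psmd10, an assembly chaperone of the proteasome, had 155, 22.1, 0.938, 0.888 and 55.1 in crest and 0.828 to 0.911 in mesoderm. Of 39 proteasome subunits 0 had no overlap and 0 had an unadjusted p under 0.05 in limma, where 577 of all 19938 genes had. Rrm1, the large subunit of ribonucleotide reductase, was high on mesoderm arrays 1 and 3 (24.1 on array 3), at 1.00 on array 2 and at 0.386 to 1.86 in crest. Of 39 replication and mitosis genes 1 (2.56%, against 1.46% of all genes) was higher with no overlap, Gins3 (0.966 to 22.4 in crest, 0.849 to 0.920 in mesoderm), and 0 lower. Polr2i, a subunit of RNA polymerase II, had 0.0105, 1.11 and 0.01 in mesoderm and 0.523 to 1.36 in crest, while the subunit Polr2j had 2.05, 0.275, 0.0223, 0.0395 and 0.0638 in crest and 0.795 to 1.90 in mesoderm. The direction thus differed between subunits of 1 complex, and neither passed over all genes (adjusted p = 1.00 in limma for both).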
